A study of Mus musculus with 15 samples.

Results

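The 10 genes described here encode tripartite motif (TRIM) proteins linked to antiviral defence, and were taken by name from the 21938 protein-coding genes of the GENCODE M21 annotation on the mouse build mm10. Trim34a, Trim5, Trim12a, Trim12c, Trim30b, Trim30c, Trim30a and Trim30d form a cluster on chromosome 7, Trim21 lies 1.68 Mb from it on the same chromosome, and Trim25 lies on chromosome 11. The assay was CUT&RUN on bone marrow-derived macrophages (BMDMs), where a nuclease tethered by an antibody frees the DNA around its target for sequencing. Bone marrow of C57BL/6 mice aged 8 to 10 weeks was cultured for 6 to 8 days in medium conditioned by L929 cells. WT cells carried floxed H3f3a and H3f3b, the genes for the histone variant H3.3, without Cre (both loci homozygous for the fl allele). The H3.3 cKO cells carried the same floxed alleles with Cre knocked in at the myeloid gene Lyz2 (LysM-cre/cre). H3.3-HA cells came from knock-in mice with an HA-tagged H3f3b. Histone H3 acetylated at lysine 27 (H3K27ac) or trimethylated at lysine 36 (H3K36me3) was profiled in WT and cKO cells, and HA in the H3.3-HA cells, with 2 biological replicates each. No cKO cells were profiled for HA, and Cre was absent from the WT cells, so loss of H3.3 and presence of Cre at Lyz2 cannot be told apart in these libraries.

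TRIM proteins are built from a RING domain with ubiquitin ligase activity, B-box and coiled-coil domains, and most members of this group end in a B30.2/SPRY domain that binds the target. Many TRIM genes are induced by interferon through the interferon-stimulated response element (ISRE) in their promoters. H3K27ac marks active promoters and enhancers, whereas H3K36me3 is laid down over gene bodies during transcript elongation. Primate TRIM5 is best known for binding incoming retroviral capsids, and Trim5, Trim12a and Trim12c are its mouse relatives, with Trim34a a closely related paralogue. Trim30a restrains Toll-like receptor signalling, and Trim30b, Trim30c and Trim30d are its paralogues. TRIM21 is a cytosolic receptor for antibody-coated viruses, and TRIM25 is a ubiquitin ligase of the RIG-I pathway.

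The promoters of the members are shown first, since the H3K27ac results centre on the gene starts. Promoter sequences were those of RefSeq (GRCm38.p6, the mm10 assembly), which hold 250 bases before and 50 bases from each start, and all 10 members matched, Trim30a with a pair of starts. The core of the ISRE, searched as GAAANNGAAA on both strands, was present in 1131 of 32851 promoters in the RefSeq table (3.44%) and in 8 of the 11 member promoters, which belonged to 7 of the 10 members. The following stretches of 60 bases, each written 5′ to 3′ along the gene with the matches in capitals, show these 8 promoters.
Trim34a (chr7:104244442-104244501, plus strand): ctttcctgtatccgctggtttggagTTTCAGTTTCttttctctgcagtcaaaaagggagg
Trim5 (chr7:104288121-104288180, minus strand): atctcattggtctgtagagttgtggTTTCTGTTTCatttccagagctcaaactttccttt
Trim12a (chr7:104315451-104315510, minus strand): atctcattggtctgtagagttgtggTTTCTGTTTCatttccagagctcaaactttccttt
Trim12c (chr7:104353344-104353403, minus strand): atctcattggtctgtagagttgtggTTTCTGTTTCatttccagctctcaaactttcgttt
Trim30a upstream start (chr7:104465195-104465254, minus strand): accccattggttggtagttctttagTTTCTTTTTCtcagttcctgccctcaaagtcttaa
Trim30a downstream start (chr7:104446089-104446148, minus strand): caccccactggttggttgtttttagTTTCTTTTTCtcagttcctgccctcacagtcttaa
Trim30d (chr7:104507856-104507915, minus strand): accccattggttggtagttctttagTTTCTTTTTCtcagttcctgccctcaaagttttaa
Trim21 (chr7:102565433-102565492, minus strand): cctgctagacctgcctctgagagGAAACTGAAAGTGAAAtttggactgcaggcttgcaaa
The Trim5 and Trim12a stretches differed at 0 of 60 bases, Trim12c differed from each at 3, and Trim30d differed from the upstream Trim30a start at 1. Trim21 held 2 overlapping matches. In all others the match lay on the strand opposite to the gene. The promoters of Trim30b, Trim30c and Trim25 held no match, and the RefSeq start of Trim30b lies 11238 bp from the GENCODE start used for its window. In Trim30c the stretch most like that of the upstream Trim30a start differed from it at 8 of 60 bases, of which 1 fell inside the 10 bases of the match, as T3C (positions counted from 1 at the 5′ end of the match, Trim30a base first).
Trim30c (chr7:104400881-104400940, minus strand): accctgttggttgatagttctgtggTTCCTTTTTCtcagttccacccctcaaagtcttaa
Only Trim30c held the palindromic GAS motif, searched as TTCNNNGAA, which 8.30% of promoters held. A match describes letters only and does not show that a factor binds there.

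Coverage was measured as the percentage of a window, the gene body plus 5 kb upstream, that lay under called regions, and a member was counted as higher or lower where both cKO libraries lay beyond both WT libraries. With 2 libraries against 2, the two-sided exact permutation test cannot give a p below 0.333, so no comparison of a single gene could reach 0.05. The cluster contains near-identical copies, which limits unambiguous placement of reads. Of the 25-base words of the window, 25 bases being the length of each read of a pair, 89.9% occurred once in the genome at Trim21 and 88.6% at Trim25. In the cluster this share was 83.9% at Trim30c and 71.9% at Trim30b, between 44.3% and 51.9% at Trim12a, Trim12c, Trim30a and Trim30d, and lowest at Trim34a (37.02%) and Trim5 (32.2%). Of 50-base words, 58.4% at Trim34a and 51.6% at Trim5 occurred once, against 97.3% at Trim21 and 96.0% at Trim25. How reads with several matches were placed is not given in the sources used here, so values at Trim34a, Trim5, Trim12a, Trim12c, Trim30a and Trim30d are uncertain to that extent, in WT and cKO alike. Trim34b, a copy of Trim34a inside the cluster with 36.1% of 25-base words unique, had no region in any library.

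The libraries held between 5365319 and 29988098 tags, and depth was not matched between genotypes. For H3K36me3 there were 15086387 and 14027132 tags in WT and 23782914 and 23503055 in cKO. For H3K27ac there were 28366343 and 16444864 in WT and 29988098 and 25560110 in cKO. The part of depth in the results below was not tested. Fewer tags of the cKO H3K27ac libraries lay in regions (11.8% and 17.8%) than of the WT libraries (24.1% and 21.5%), and their regions covered 46.2 and 62.0 Mb against 89.6 and 74.8 Mb. For H3K36me3, cKO replicate 1 stood apart with 19.3% of tags in regions and 90.7 Mb, whereas the other 3 libraries had 46.5% to 50.2% and 163 to 170.5 Mb. The floxed genes could not be checked from the lists, because H3K27ac regions covered 55.4% and 73.6% of H3f3b in cKO against 23.9% and 24.1% in WT, and WT and cKO therefore name the libraries as labelled. Lyz2, the locus of the Cre knock-in, went from 94.2% and 88.4% of its window under H3K27ac regions in WT to 28.1% and 24.4% in cKO. Of 8 macrophage marker genes, Lyz2 among them, 7 carried an H3K27ac region in both WT libraries and 7 in both cKO libraries. In H3K27ac 4 were lower and 1 higher in both cKO libraries, against 22.3% and 10.1% of all genes, with a median difference of -3.56 points. In H3K36me3 the same 8 genes went the other way, with 3 higher and 1 lower in both cKO libraries, against 4.28% and 20.6% of all genes. The median difference was 2.37 points. At least 1 library had H3K27ac at 4 of 7 neutrophil, 2 of 4 B cell, 2 of 4 T cell, 1 of 4 erythroid and 1 of 4 dendritic cell markers. The mean over the neutrophil markers was 2.28% and 1.89% in WT and 2.69% and 4.38% in cKO, and Cd3d of T cells went from 0% in both WT libraries to 8.56% and 13.2%. The part of these markers in the results below was not tested. No H3K36me3 region lay over any of 7 neutrophil, 4 T cell or 4 erythroid markers in WT or cKO libraries, and 1 of 4 B cell and 1 of 4 dendritic cell markers carried one in at least 1 library.

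H3K27ac covered more of the TRIM5-like genes and Trim30c in cKO cells, although the cKO lists were shorter. Window coverage was higher in both cKO libraries at 5 of 10 members, namely Trim34a, Trim5, Trim12a, Trim12c and Trim30c, all of them in the cluster, against 10.1% of all genes. It was lower at 0 of 10 members, against 22.3% of all genes. These shares include 9171 genes without an H3K27ac region in any WT or cKO library, which could not be counted, whereas every member had one. Of the 12767 genes with such a region, 2223 were higher and 4882 lower. The count of higher members was 8 without WT replicate 1, against 15.7% of all genes, and 8 without cKO replicate 1, against 21.7%. In such bulk samples fewer cells with a mark and less of the mark per cell cannot be told apart. The plot of window coverage by gene shows every library.

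**Figure D1:**
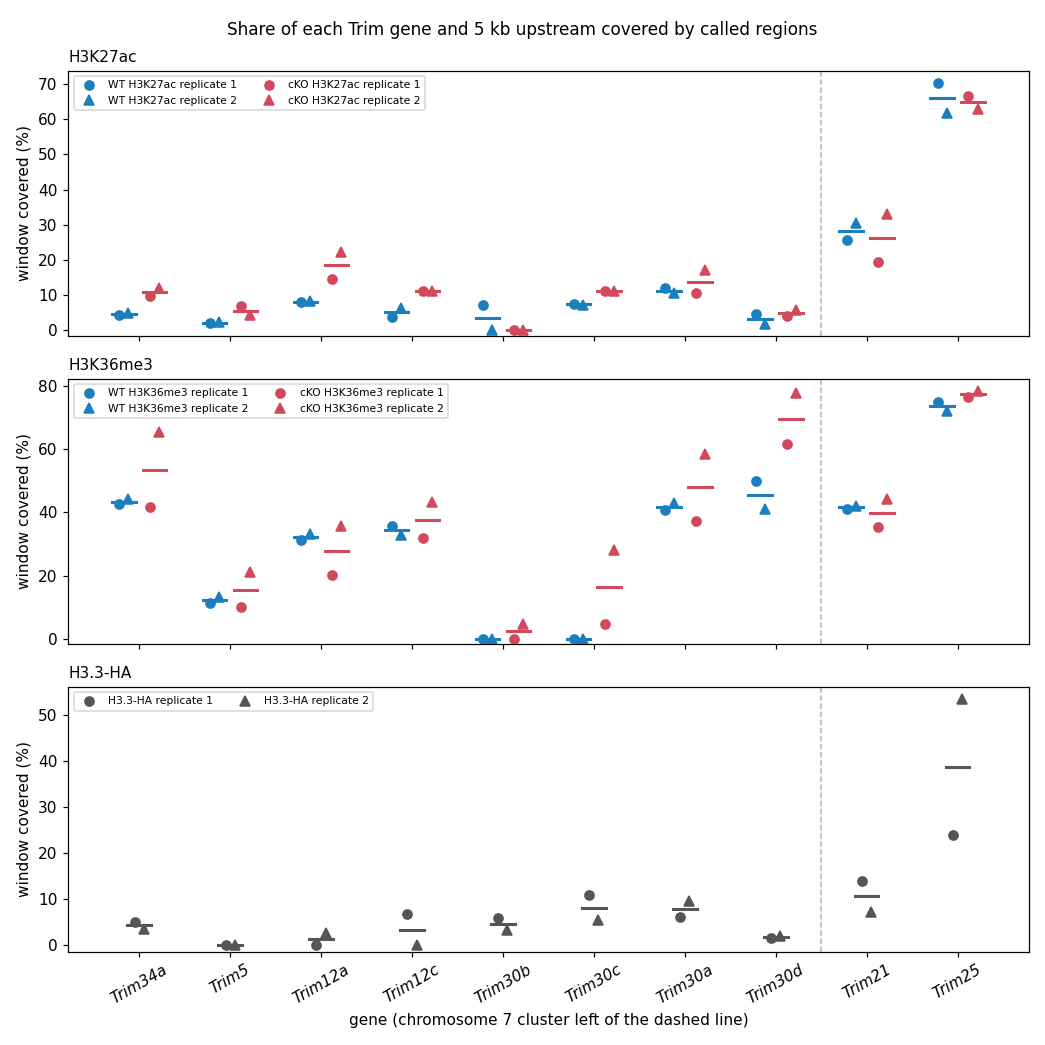
Percentage of each gene's window (body plus 5 kb upstream) covered by H3K27ac (top), H3K36me3 (middle) and H3.3-HA regions (bottom), with circles for replicate 1, triangles for replicate 2 and bars for the mean. Blue marks WT, red cKO and grey H3.3-HA. H3K27ac separates WT from cKO at Trim34a, Trim5, Trim12a, Trim12c and Trim30c, whereas Trim25 carries the most coverage of both marks in each library.

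At Trim34a, H3K27ac regions covered 4.50% and 4.98% of the window in WT and 9.67% and 12.02% in cKO, a difference of 6.11 points between means of 4.74% ± 0.341 and 10.8% ± 1.66 (SD, n = 2 each). Trim5 had the lowest WT mean of the 10, with 2.18% and 2.25% in WT and 6.78% and 4.28% in cKO, and its groups did not overlap. For Trim12a the values were 7.98% and 8.32% in WT and 14.7% and 22.3% in cKO, the largest difference among the members (10.4 points). Trim12c went from 3.85% and 6.42% to 11.3% and 11.2%. At each of these genes the cKO mean was over 2 times the WT mean.

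Trim30c, the paralogue with the most unique sequence in the cluster, had 7.46% and 7.32% in WT and 11.1% and 11.1% in cKO, so that the group means differed by 3.71 points, with SDs of 0.101 in WT and 0.00595 in cKO. Trim30a did not separate, with 12.1% and 10.5% in WT and 10.6% and 17.1% in cKO. Trim30d did not separate either, with 4.76% and 1.93% in WT and 3.98% and 5.703% in cKO. Trim30b carried H3K27ac in WT replicate 1 alone (7.26%) and none in the other 3 libraries. By this count only Trim30c of the Trim30 paralogues was higher over the whole window. With lists of equal length, Trim30a and Trim30d joined it (7 of 10 members higher, against 13.8% of all genes). Whether the paralogues differed from each other was not tested.

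Trim21 overlapped between genotypes, with 25.8% and 30.4% in WT and 19.3% and 33.2% in cKO. Trim25 overlapped as well, at 70.2% and 61.7% in WT and 66.5% and 63.0% in cKO. Both had far more H3K27ac than the cluster in WT cells, where the means ran from 66.0% ± 6.03 at Trim25 and 28.1% ± 3.27 at Trim21 to 11.3% ± 1.13 at Trim30a, 8.15% ± 0.244 at Trim12a, 7.39% ± 0.101 at Trim30c, 5.14% ± 1.82 at Trim12c and 4.74% ± 0.341 at Trim34a. Below these, Trim30b (3.63% ± 5.13), Trim30d (3.35% ± 1.997) and Trim5 (2.22% ± 0.0476) followed. The libraries of neighbours in this order overlapped from Trim12c downwards and not above it. Over the union of the 8 cluster windows (236789 bp), coverage was 7.05% and 5.81% in WT and 8.56% and 11.1% in cKO, a difference of 3.40 points (2.13 without cKO replicate 2), against -1.86 at Trim21 and -1.22 at Trim25. At Trim21 and Trim25 the sign turned when single libraries were left out, with values between -8.80 and 5.07 points and between -5.49 and 3.05 points. The difference between these changes was not tested.

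The higher H3K27ac lay mainly at the gene starts. At Trim34a, Trim5, Trim12c and Trim30c all H3K27ac bases of the whole window lay within 2 kb of the start. The counts near the start therefore rest largely on the same bases and are no separate result. Within 2 kb on each side of the start, a window chosen after the data had been seen, covered bases were higher in both cKO libraries at 6 of 10 members, namely the same 5 genes and Trim30d, against 16.4% of all genes, and lower at 0, against 7.71%. Genes with H3K27ac bases in this window in all 4 libraries numbered 5464, including 9 of the 10 members, and 38.6% of those were higher in both cKO libraries and 18.1% lower, so wider regions at starts were common in cKO cells. The 2 kb after the start alone gave 7 members, with Trim21 joining these 6, against 14.3% of all genes, and 0 lower, against 7.05%.

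**Figure D2:**
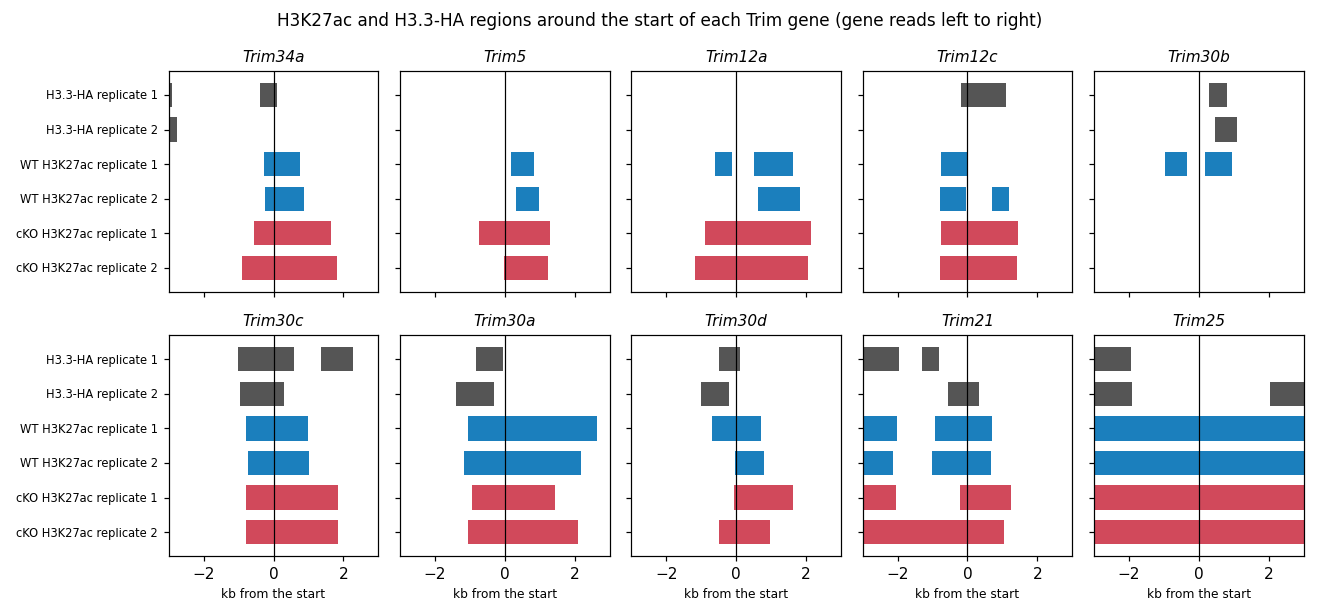
H3K27ac regions of WT (blue) and cKO libraries (red) and H3.3-HA regions (grey) within 3 kb of the start of each member, in kb along the direction of the gene, with 1 row per library and a vertical line at the start. Regions in cKO cells run across the starts of Trim5, Trim12a and Trim12c, where WT regions do not cover the start base.

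At Trim34a a region lay over the start in all 4 libraries, 1024 and 1134 bp wide in WT and 2203 and 2737 bp in cKO. It reached 749 and 884 bp into the gene in WT and 1645 and 1829 bp in cKO. The region over the Trim30c start measured 1773 and 1739 bp in WT and 2638 and 2636 bp in cKO, and its upstream edge hardly moved (792 and 733 bp before the start in WT, 796 and 782 bp in cKO), while its downstream edge went from 980 and 1005 bp to 1841 and 1853 bp. The growth at both genes was thus mainly toward the gene body.

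Trim5, Trim12a and Trim12c differed from these in that no WT region covered the start base, whereas in both cKO libraries a single region ran across it. The start base was covered in both cKO and neither WT library at 3 of 10 members, against 11.8% of all genes, and in both WT and neither cKO library at 0 of 10, against 1.19%. Among the 5464 genes with H3K27ac near the start in all 4 libraries, 1609 (29.4%) had the first pattern, against 3 of 9 members, a share near that background. At Trim5 the WT regions began 188 and 323 bp after the start, and the cKO regions, 2014 and 1273 bp wide, began 728 and 35 bp before it. Trim12a had WT regions from 498 and 631 bp after the start, with a further one of 501 bp upstream in replicate 1, and cKO regions of 3019 and 3235 bp. Trim12c had WT regions that ended 17 and 41 bp before the start, with a further one of 501 bp downstream in replicate 2, and cKO regions of 2210 and 2188 bp across it. The ISRE core matches printed above lay outside the H3K27ac regions of both WT libraries at these 3 genes. They lay under regions of both cKO libraries at Trim12a and Trim12c, and under that of replicate 1 alone at Trim5. At Trim34a, Trim21 and both Trim30a starts they were under regions in all 4 libraries, and at Trim30d in all but WT replicate 2. The WT gaps lay in sequence where 35.6% (Trim5), 39.5% (Trim12a) and 55.3% (Trim12c) of 25-base words within 2 kb of the start were unique. Of 50-base words there, 61.8%, 62.8% and 77.8% were unique.

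Trim30a differed in opposite directions at its pair of starts, with a narrower region in both cKO libraries at one and a wider region at the other. At the upstream start, 104465193 on chromosome 7, the region measured 3703 and 3339 bp in WT and 2359 and 3165 bp in cKO. At the downstream RefSeq start, which lies 19068 bp into the gene, it measured 2531 and 2583 bp in WT and 2854 and 2775 bp in cKO. An added region of 527 bp (chr7:104447742-104448268) beside the downstream start was called in both cKO libraries and neither WT library, the only gained H3K27ac region among the members, so 1 of 10 members gained a region, against 10.1% of all genes. No member lost one, against 21.7% of all genes. The Trim30d region at the start was 1406 and 828 bp wide in WT and 1704 and 1441 bp in cKO. At Trim25 the region over the start was the widest of any member and wider in both cKO libraries (16346 and 15937 bp) than in WT (13250 and 12842 bp), although total window coverage overlapped.

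H3K36me3 lay away from the starts of 6 members. Within 2 kb of the start no H3K36me3 region was called in any of the 4 libraries at Trim34a, Trim5, Trim12a, Trim12c, Trim30b or Trim30c. The marks overlapped at Trim25, where the H3K27ac region over the start reached 6945 and 6873 bp into the gene in WT and H3K36me3 began 1499 and 1622 bp after the start. At Trim30a a region of 634 bp with H3K36me3 lay across the start in cKO replicate 2. In WT, coverage of the window was highest at Trim25 (73.5% ± 2.03), followed by Trim30d (45.4% ± 6.29), Trim34a (43.3% ± 1.12), Trim30a (41.8% ± 1.41), Trim21 (41.5% ± 0.827), Trim12c (34.4% ± 1.99), Trim12a (32.2% ± 1.22) and Trim5 (12.1% ± 1.32). Trim30b and Trim30c had none. The libraries of neighbours overlapped from Trim30d to Trim21 and between Trim12c and Trim12a.

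**Figure D3:**
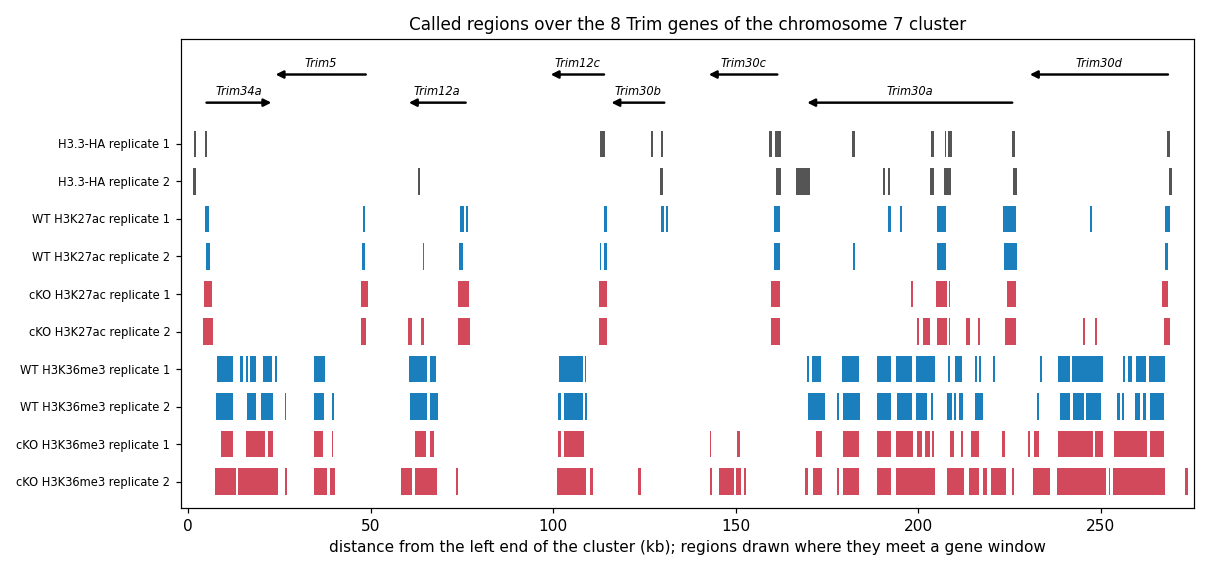
Map of called regions over the chromosome 7 cluster, with 1 row per library, distance from the left end of the cluster in kb on the horizontal axis, and arrows for the genes in their direction of transcription. Grey marks H3.3-HA, blue WT and red cKO. H3K27ac regions lie at the starts, with a few in the bodies, H3K36me3 regions lie mainly over the bodies, and only the cKO libraries have H3K36me3 over Trim30c.

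H3K36me3 coverage was higher in both cKO libraries at 3 of 10 members, Trim30c, Trim30d and Trim25, against 4.28% of all genes. It was lower at 0 of 10, against 20.6%. Of the 11975 genes with an H3K36me3 region in any WT or cKO library, as all members had, 940 were higher and 4518 lower. Trim30c went from no region in either WT library to 4.83% and 28.1% of the window in cKO. Its gained regions, merged over the libraries, lay at chr7:104382278-104382905 and chr7:104389532-104390976 and were 628 and 1445 bp long. Each had its midpoint in an exon, 18.2 and 10.6 kb after the start. In cKO replicate 1 these regions were only 501 and 648 bp wide, and both cKO libraries of this mark held more tags than either WT library. Trim30c was the only member with a gained H3K36me3 region (1 of 10, against 4.62% of all genes), and 0 of 10 lost one, against 12.9%. With regions of at least 1 kb, Trim30c was no longer counted as higher or gained, and Trim30d was the member with a gained region. Trim30d went from 49.890% and 40.996% to 61.5% and 77.6%, a difference of 24.1 points between means of 45.4% ± 6.29 and 69.6% ± 11.4. Trim25 moved by 3.88 points, from 74.9% and 72.1% to 76.4% and 78.3%.

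The remaining members followed the split between the cKO replicates. Trim34a had 42.5% and 44.1% in WT and 41.6% and 65.3% in cKO. Trim5 had 11.2% and 13.1% in WT and 10.0% and 21.1% in cKO, and Trim12c had 35.8% and 32.9% against 31.8% and 43.2%. Replicate 1 of the cKO lay below both WT libraries and replicate 2 above both at these genes, and likewise at Trim12a (31.4% and 33.1% in WT, 20.2% and 35.5% in cKO), Trim30a (40.8% and 42.8%, then 37.4% and 58.4%) and Trim21 (40.9% and 42.1%, then 35.3% and 44.2%). Trim30b carried a single region in cKO replicate 2 (4.68%). Over the union of the cluster windows, coverage was 30.74% and 29.95% in WT and 30.8% and 47.9% in cKO, a difference of 9.03 points, against -1.77 at Trim21 and 3.88 at Trim25. The cluster difference was 0.491 points without cKO replicate 2 and 17.6 points without cKO replicate 1, and that of Trim21 was 2.70 points without cKO replicate 1.

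Because cKO replicate 1 covered less of the genome, each gene was also placed by its percentile among all protein-coding genes of the same library, a scale added after the data had been seen. On this scale 8 of 10 members, all but Trim30b and Trim25, stood higher in both cKO libraries, against 14.0% of all genes. Trim34a moved from the percentiles 80.7 and 80.5 in WT to 91.2 and 91.7 in cKO, Trim30a from 79.6 and 79.7 to 89.4 and 88.2, and Trim30d from 85.2 and 78.6 to 97.4 and 97.2. Trim21 moved less, from 79.7 and 79.3 to 88.4 and 80.3. Hence the count of members with higher H3K36me3 rested on the scale, from 3 by percentage covered to 8 by rank. It also rested on single libraries, since all 10 members were higher without cKO replicate 1, against 22.5% of all genes, and 6 were lower without cKO replicate 2, against 42.5%. For H3K27ac the rank gave 7 members, the 5 named above with Trim30a and Trim30d, against 14.6% of all genes.

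**Figure D4:**
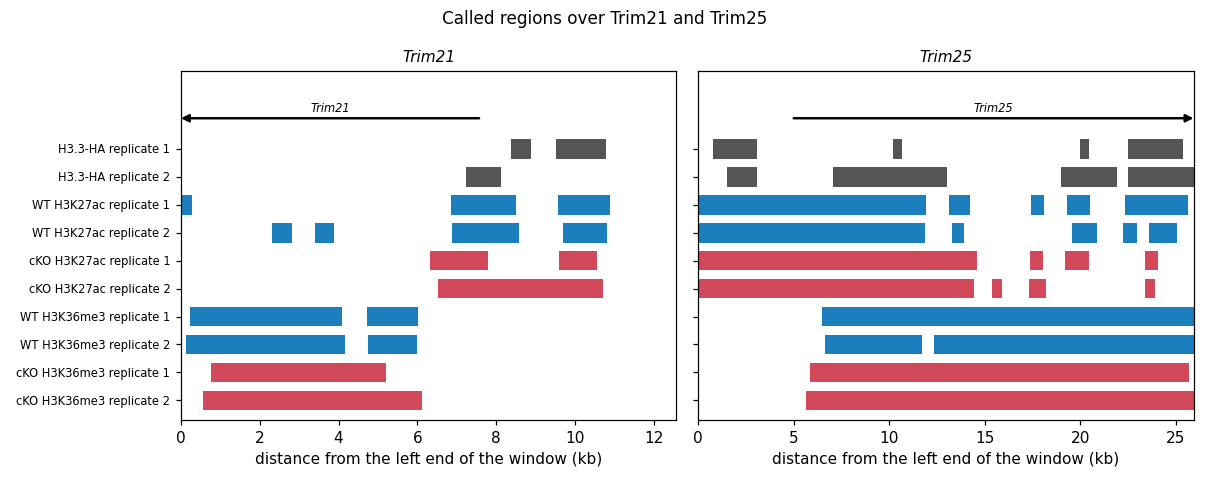
Called regions over the windows of Trim21 (left) and Trim25 (right), with 1 row per library, distance from the left end of the window in kb, and an arrow for the gene. Grey marks H3.3-HA, blue WT and red cKO. H3K36me3 covers nearly the whole Trim25 body in WT and cKO alike, and the H3K27ac region at its start is wider in cKO.

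H3.3-HA regions were found in both libraries at 7 of 10 members, against 44.2% of all genes. The members without one in both libraries were Trim5, Trim12a and Trim12c. Trim25 had the most, 23.8% and 53.5% of the window, and the libraries differed widely. Trim21 had 14.0% and 7.15%, Trim30c 10.8% and 5.32%, Trim30a 6.01% and 9.40%, Trim30b 5.80% and 3.23%, Trim34a 4.98% and 3.43%, and Trim30d 1.47% and 1.87%. Trim12c had a region of 1290 bp across its start in replicate 1 alone, Trim12a one of 501 bp in the body in replicate 2 alone, and Trim5 none. The 3 genes whose starts were bridged by H3K27ac in cKO cells were the 3 without a reproduced H3.3-HA region in the window, but the gene body alone left 6 members without one and a minimum width of 1 kb left 8. At Trim30a the H3.3-HA region nearest the start lay upstream of the start base (760 and 1102 bp wide) in both libraries and overlapped the WT H3K27ac region. The Trim30a window held 5 H3.3-HA regions in replicate 1 and 6 in replicate 2, the others lying within the gene or across its end. Among them, regions 21496 to 22308 bp after the start in replicate 1 and 21360 to 22581 bp in replicate 2 overlapped each other. Of the H3.3-HA regions over the members, 14 of 19 in replicate 1 and 11 of 16 in replicate 2 overlapped a WT H3K27ac region, compared with 62.0% and 59.2% of all H3.3-HA regions. These lists came from other cells, held the fewest tags and report on tagged H3f3b alone.

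The neighbourhood of the cluster was almost free of regions. Of 28 other protein-coding genes in or within 250 kb of the cluster, 21 of them olfactory receptor genes, 19 carried no H3K27ac region and 27 no H3K36me3 region in the WT and cKO libraries, and none was higher or lower in both cKO libraries for either mark. Trim6, the next Trim gene, had H3K36me3 in 3 libraries (2.35% and 5.34% in WT, 7.77% in cKO replicate 2). Among 58 other Trim genes, H3K27ac was higher in both cKO libraries at 6 and lower at 18, against 10.1% and 22.3% of all genes. H3K36me3 was higher at 2 and lower at 12, against 4.28% and 20.6% of all genes. The median difference was 0 for both marks, as over all genes. Trim59 differed by -21.6 points of H3K27ac coverage (69.9% and 66.6% in WT, 43.9% and 49.4% in cKO), while Trim11 differed by 20.2 points (17.1% and 2.73%, then 32.2% and 28.1%) and by -22.01 points in H3K36me3.

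Of 24 interferon and RNA sensing genes, 9 were higher and 5 lower in H3K27ac in both cKO libraries, against 10.1% and 22.3% of all genes. The median difference was 1.82 points. Isg15, the ubiquitin-like modifier, went from 20.3% and 9.96% to 42.0% and 59.9%. Stat2, a transcription factor of the type I interferon response, went from 0% and 1.84% to 14.0% and 13.9%, whereas Jak1, an interferon receptor kinase, differed by -19.7 points. H3K36me3 was higher at 3 and lower at 4 of the 24, against 4.28% and 20.6% of all genes. Usp18, which removes ISG15 from proteins, differed by 33.2 points and Dhx58, a RIG-I-like receptor, 24.6 points. Irf9, a DNA-binding factor of the same response, differed by -36.9 points and the adaptor Traf3 by -19.5 points.

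The genes whose coverage over the 10 libraries was closest to a member, by Euclidean distance in percentage points, were Zwilch (9.35), Grpel2 (10.1) and Wdhd1 (12.1) for Trim30a, Saraf (9.45), Cd47 (16.02) and Pfkp (17.5) for Trim21, and Akr1a1 (20.2), Tnfrsf1b (22.6) and Fam129b (23.8) for Trim25. These distances describe coverage alone and share the depth of each library.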

How the data were processed

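The authors mapped paired-end CUT&RUN reads on mm10 (Bowtie2, local alignment) and called regions with HOMER, separately for each library against an IgG control (per the file headers: peak size of 500 bp, 1000 bp minimum distance between peaks, 4-fold over the control). Each of the H3.3-HA, WT and cKO groups had its own control. Each deposited list gives starts and ends in bp, and its score column, as deposited by the authors, is constant, so heights were not used and a region missed in 1 library may differ little in signal. The 5 IgG samples were not used here as libraries.

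Autosomal, X and Y regions were intersected with gene windows (strand-aware, no filter on low values) in Python 3.11.15 with numpy 2.4.6, checked on simulated lists. Lists of a mark were merged, and a gained region was one that both cKO and neither WT library overlapped by at least 1 bp, a lost one the opposite. Motifs were searched in RefSeq promoters, and word uniqueness was counted over both strands of GRCm38. Groups and replicate numbers came from the labels, and replicates were biological. p-values were not adjusted because none could pass. Named genes were all 10 members and, for each list and mark, up to 4 genes whose groups did not overlap with the largest differences, of which 1 is not reported here. The members and lists were chosen with earlier results of these data known. Annotation listed 1 pathway symbol under a newer name.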

Additional observations from a re-analysis of the deposited data

How the results depend on the processing

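Alternatives were gene bodies alone, regions of at least 1 kb, lists of a mark cut to equal length, an overlap of 500 bp, each replicate left out, the replicate block and, added after seeing the data, the start windows, the rank within a library and a crossed pairing. Of 141 recomputed values, 114 stayed within the spread or within 1.5 times the count. Among these are the mean differences under the replicate block, which cannot differ from the main ones. No member counted as higher with the main settings was lower under an alternative for the same mark and window. Leaving out a replicate or pairing the libraries could not have given another outcome, since the rule asks for both cKO above both WT libraries. Only the other alternatives could have. Of the 8 members higher in H3K36me3 by rank, 6 were lower in coverage without cKO replicate 2 (Trim34a, Trim5, Trim12a, Trim12c, Trim30a and Trim21). In H3K27ac, Trim21 and Trim25 were each higher or lower depending on which replicate was left out. The differences of Trim21 and Trim25, which had overlapping groups in H3K27ac, changed sign in part. Trim21 was at 3.27 points of H3K27ac with lists of equal length. Leaving out 1 replicate gave -8.80 to 5.07 points (H3K27ac) and -6.24 to 2.70 points (H3K36me3) at Trim21, and -5.49 to 3.05 points of H3K27ac at Trim25. The mean difference of the cluster, which was not recomputed for the 500 bp overlap or the added settings, stayed above 0 for both marks under the others. Leaving out a replicate or the replicate block could not turn its sign, because both cKO libraries lay above both WT libraries for both marks.

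With a minimum width of 1 kb, 2 members gained (Trim5 and Trim12c) and 1 lost (Trim25) an H3K27ac region. Trim30a, the gained member with all widths, dropped out, and in H3K36me3 Trim30d replaced Trim30c as the gained member. At this width 2 members kept a reproduced H3.3-HA region, and the gene body alone left 4. Lists of equal length gave 2 members with a gained H3K27ac region. By rank, 8 members were higher in H3K36me3. Near the start, 1 member (Trim30a) was lower in H3K27ac with 5 kb on each side.

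Leaving out 1 replicate gave 5 to 8 members with higher and 0 to 2 with lower H3K27ac, 1 to 4 with a gained and 0 to 4 with a lost H3K27ac region, 3 to 10 with higher and 0 to 6 with lower H3K36me3, 2 to 6 with a gained and 0 to 1 with a lost H3K36me3 region, and 0 to 2 lower near the start. The highest counts of gained regions came without cKO replicate 1, and that of lost H3K27ac regions without WT replicate 2. A gained region must be present in all cKO and no WT libraries, and a lost one the opposite. With a library left out these rules are easier to meet, so the counts can rise through the rule alone. Why they were highest without these libraries was not tested further.

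Same-numbered libraries deviated together by r = -0.10 for H3K27ac and 0.10 for H3K36me3 across genes. These values do not show that the numbers pair the samples, and with 2 pairs they cannot exclude it. The replicate block gave 5 members higher in H3K27ac, 3 higher in H3K36me3 and 0 lower in either, and 1 member (Trim30a) lower near the start. Its cluster differences of 3.40 and 9.03 points equal the main ones by arithmetic, since the mean of paired differences is the difference of means. A crossed replicate block gave 7 members higher in H3K27ac, against 12.9% of all genes, and 0 lower, against 26.5%. Without heights in the lists, only presence and width could be compared.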
